A study of Mus musculus with 13 samples.

Results

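The Frizzled receptors were followed as a family of 10 genes, Fzd1 to Fzd10, taken by symbol from the 37785 genes counted in each library, and all 10 passed the low-count filter that left 21170 genes for testing. The libraries were made from brain cells of wild-type C57BL/6 mice, enriched with magnetic beads against Pdgfra, the surface receptor used to isolate oligodendrocyte precursor cells (OPCs), which are the glial progenitors that form oligodendrocytes. Embryonic mice (E16, 3 libraries), early postnatal mice (P12, 3 libraries), young adults (P80, 3 libraries) and older adults (P310, 4 libraries) were sampled, 1 mouse a library as far as the labels number them, with no treatment or mutation in any group. In the age field of the labels the P80 mice stand as P80, P81 and P81, and the P310 mice as P306, P307, P308 and P308. At P80 and P310 myelin debris was first taken out with beads, which was not done at E16 or P12, so this treatment and adult age cannot be told apart. The members were chosen by name, with no measured value in the rule.

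Frizzleds are serpentine membrane receptors whose outer cysteine-rich domain binds Wnt proteins, secreted lipid-modified ligands. With the co-receptors Lrp5 and Lrp6 and the adaptor Dishevelled they stabilise beta-catenin, which acts with Tcf/Lef factors on target genes, while Fzd3 and Fzd6, with Celsr and Vangl proteins, are known for planar cell polarity and axon guidance. In brain blood vessels Fzd4, with Lrp5 and Tspan12, receives Norrin (Ndp), and Wnt7a and Wnt7b signal to endothelium through the partners Adgra2 and Reck, and in the oligodendrocyte lineage Wnt signalling is known to affect the timing of differentiation.

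By sequence the family falls into the close relatives Fzd1, Fzd2 and Fzd7, the pair Fzd5 and Fzd8, the pair Fzd3 and Fzd6, and Fzd4, Fzd9 and Fzd10. Since the authors counted a read at every place it mapped to, stretches that members share bear on how far their counts are separate. Over the GENCODE M21 transcripts no 50-base stretch was shared by any of the 45 pairs of members, and the longest identical runs were 47 bases between Fzd1 and Fzd2 and between Fzd1 and Fzd7, and 38 bases between Fzd2 and Fzd7. The first run is printed below with the matching stretch of Fzd7, in coding sequence with capitals for bases that differ from Fzd1, and with positions counted from 1 at the start codon. Of its 47 bases, Fzd7 shared 42 and differed at 5.
Fzd1 (1204 to 1250): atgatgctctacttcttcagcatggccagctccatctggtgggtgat
Fzd2 (1009 to 1055): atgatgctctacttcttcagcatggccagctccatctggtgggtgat
Fzd7 (1015 to 1061): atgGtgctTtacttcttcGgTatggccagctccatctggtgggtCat
In the second run, shared by Fzd1 and Fzd7, Fzd2 had 44 identical and 3 different bases, capitals marking the same.
Fzd1 (571 to 617): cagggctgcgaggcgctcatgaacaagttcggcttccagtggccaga
Fzd7 (385 to 431): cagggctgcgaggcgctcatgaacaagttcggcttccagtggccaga
Fzd2 (370 to 416): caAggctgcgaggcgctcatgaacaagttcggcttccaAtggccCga
A read longer than 47 bases within a coding exon therefore held at least 1 base that told these genes apart in the reference. The read length is not given in the sources used here, and values of Fzd1, Fzd2 and Fzd7 are uncertain to the extent that shorter or mismatched reads were counted for more than 1 of them.

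In GRCm38 none of the members' exons overlapped an exon of another annotated gene, which matters because strand was not used in counting. Fzd4 is at chr7:89404355-89413134 on the plus strand with 2 exon blocks and 6720 exonic bases, and Fzd6 at chr15:39006034-39038188, plus, with 9 blocks and 4818 bases. Fzd3 is at chr14:65192449-65262463, minus, with 8 blocks and 12804 bases, the longest of the family. Fzd1 (chr5:4753839-4758035, minus), Fzd2 (chr11:102604396-102608058, plus) and Fzd7 (chr1:59482424-59486955, plus) are each a single exon. Fzd5 (chr1:64730558-64737751, minus) has 2 exon blocks, and Fzd9 (chr5:135248938-135251230, minus) and Fzd10 (chr5:128600844-128604093, plus) have 1.

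The RefSeq promoter table (GRCm38.p6) held 6 of the 10 members, and the 250 bases before the RefSeq start of Fzd4 and Fzd1 are printed because Fzd4 was the member with the largest rise and Fzd1 was one of those that fell. For Fzd1, Fzd4, Fzd7, Fzd9 and Fzd10 the RefSeq start lies off the start annotated in the files, so the windows are not all placed alike. The windows of Fzd1 and Fzd7 lie wholly outside the annotated gene. That of Fzd10 (chr5:128600856-128601105) lies wholly inside its annotated exon, and that of Fzd9 (chr5:135251048-135251297) partly, so both hold transcribed sequence. The Fzd4 window ends at base 89404365, past the annotated gene start at 89404355, so its last few bases lie inside the annotated exon too. Capitals mark GGGCGG or its reverse complement CCGCCC, the GC box, and matches can overlap.
Fzd4 (chr7:89404116-89404365, plus): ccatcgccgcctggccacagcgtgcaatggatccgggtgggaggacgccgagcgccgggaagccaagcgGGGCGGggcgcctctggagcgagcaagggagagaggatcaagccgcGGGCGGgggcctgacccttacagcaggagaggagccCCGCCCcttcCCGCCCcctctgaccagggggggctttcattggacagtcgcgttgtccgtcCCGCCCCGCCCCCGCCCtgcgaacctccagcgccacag
Fzd1 (chr5:4758217-4758466, minus): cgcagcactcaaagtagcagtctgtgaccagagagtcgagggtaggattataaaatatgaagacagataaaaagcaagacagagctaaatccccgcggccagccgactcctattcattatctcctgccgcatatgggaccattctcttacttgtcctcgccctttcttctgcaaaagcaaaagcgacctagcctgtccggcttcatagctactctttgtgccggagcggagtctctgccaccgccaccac
The Fzd4 window held 7 GC boxes at 72.8% GC and the Fzd1 window none at 51.2% GC, against a median of 52.4% GC (quartiles 45.2% and 61.2%) over 32851 promoters of the same length, of which 32.7% held a GC box. Fzd5 had 9 GC boxes, Fzd7 had 6, and Fzd9 and Fzd10 had 1 each. Searched on both strands, the letters ATCAAAG, bound by Tcf/Lef factors, were in none of the 6 windows and in 3.21% of all promoters, and CCGGAAG, bound by Ets factors, was in that of Fzd10 and in 6.91% of all.

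Library totals ranged from 8669521 to 25810455 counts. Of the pairs of libraries of one age, replicates 2 and 3 of P12 were by far the closest (chi-square per gene of 2.35, against 17.9 to 185.0 for the other 14 pairs), so their counts were summed and P12 has n = 2. Values are TMM-scaled CPM (a library's counts as a share of its total, put on a common scale), and p-values measure the spread between these samples. Pdgfra, the bead target, stood at 33 ± 6.96 CPM at E16, 70.1 ± 33.2 at P12, 37.1 ± 18.4 at P80 and 30.7 ± 25.8 at P310 (SD) and passed the test between no pair of ages compared. The 10 OPC markers summed to 346 to 409 CPM at E16, 552 to 596 at P12, 231 to 297 at P80 and 159.6 to 296 at P310. Markers of some other cell types summed higher. The 10 immature neuron markers summed to 6209 to 7286 CPM at E16, and 10 endothelial markers to 3770 to 7098 CPM at later ages. At E16 the sums of endothelial (46.7 to 73.6), mural (161 to 233) and microglia markers (92.1 to 128) lay below the OPC sum. Most of that OPC sum, 387 CPM on average, came from Ptprz1 (315 ± 28.3 CPM), and its place above the mural and microglia sums rests on this gene. Ptprz1 was called lower at P80 than at E16 (log2 change -1.96). Cspg4 (2.65), Gpr17 (3.37) and Cnksr3 (2.31) were called higher, so the OPC sum does not stand for its markers alike. P310 replicate 2 held 67465 CPM of 10 mature oligodendrocyte markers and P12 replicate 1 held 8095, against 48.8 to 906 in the other 10 samples. In such bulk samples fewer cells of a type and less RNA per cell cannot be told apart.

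The make-up of the family differed between E16 and the later ages. Per kilobase of exon, which makes levels comparable between genes, the summed level of all 10 members was 59.1 ± 9.15 CPM per kb at E16, 85.9 ± 12.6 at P12, 75.4 ± 8.13 at P80 and 61.1 ± 14.2 at P310. Of this sum Fzd4 and Fzd6 together held 1.77% to 3.33% in the E16 samples, 59.6% to 67.3% at P12, 61.4% to 72.7% at P80 and 66.8% to 74.1% at P310. The other 8 members summed to 57.8 ± 9.17, 31.1 ± 0.0656, 26.4 ± 7.25 and 17.8 ± 5.34 CPM per kb at E16, P12, P80 and P310. No E16 sample overlapped a later sample in either sum.

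**Figure D1:**
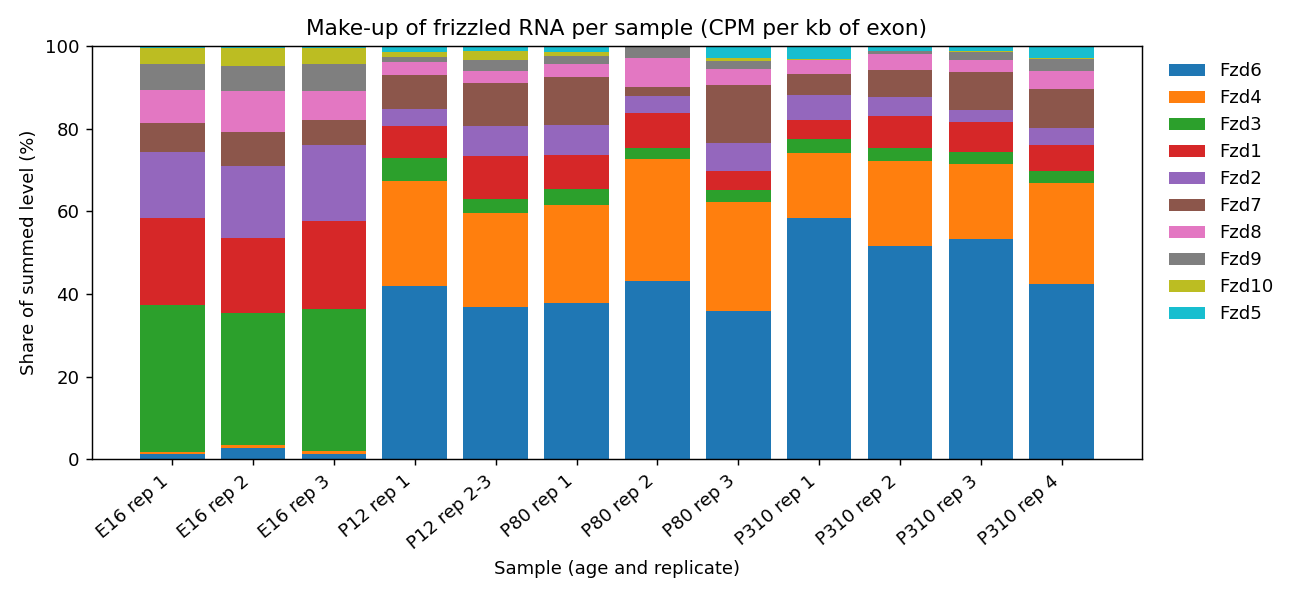
Share of each Frizzled gene in the summed family level (CPM per kb of exon, in percent), stacked for each of the 12 samples in order of age. Fzd3 holds 32% to 35.6% of the family at E16, and Fzd6 holds 42.4% to 58.3% at P310.

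At E16 Fzd3 stood first with 20.2 ± 3.88 CPM per kb, above Fzd1 (11.9 ± 2.35) and Fzd2 (10.1 ± 0.731), whose samples overlapped each other. Fzd8 (4.92 ± 1.17), Fzd7 (4.2 ± 0.984) and Fzd9 (3.77 ± 0.599) followed with overlapping neighbours, then Fzd10 (2.32 ± 0.37) and Fzd6 (1.07 ± 0.492). Fzd4 (0.325 ± 0.0835) and Fzd5 (0.314 ± 0.0338) came last and overlapped. At P12 the order was led by Fzd6 (34.1 ± 7.97 CPM per kb) and Fzd4 (20.7 ± 4.72), which did not overlap, ahead of Fzd7 (7.93 ± 0.0473) and Fzd1 (7.78 ± 0.399), which did. Fzd6 and Fzd4 kept the first and second place at P80, with 29.2 ± 1.48 and 19.8 ± 0.793 CPM per kb, and at P310, with 31.2 ± 7.27 and 12.1 ± 3.98. From the third place down, neighbours in the order overlapped at both adult ages, and Fzd10 was last, with 0.469 ± 0.42 CPM per kb at P80 and 0.117 ± 0.0823 at P310.

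Of the 10 members, 2 rose and 2 fell at P12 against E16, and 2 rose and 3 fell at P80 against E16. In the fit over all genes 27.2% of the 21170 genes were called at P12 against E16 (16.7% higher, 10.5% lower) and 40.7% at P80 against E16 (21.5% higher, 19.2% lower), against which 4 of 10 and 5 of 10 members stand. The median log2 change over the members was -0.65 and -0.82, beside 0.09 and 0.12 over all genes. Both comparisons use the same E16 samples, and the values below stand side by side for that reason. Samples of P12 and E16 did not overlap for 10 of 10 members, as for 61.8% of all genes, and those of P80 and E16 for 7 of 10, as for 58.2%. Over all 4 ages together 6 of 10 members passed the edgeR test, as did 37.1% of all genes.

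**Figure D2:**
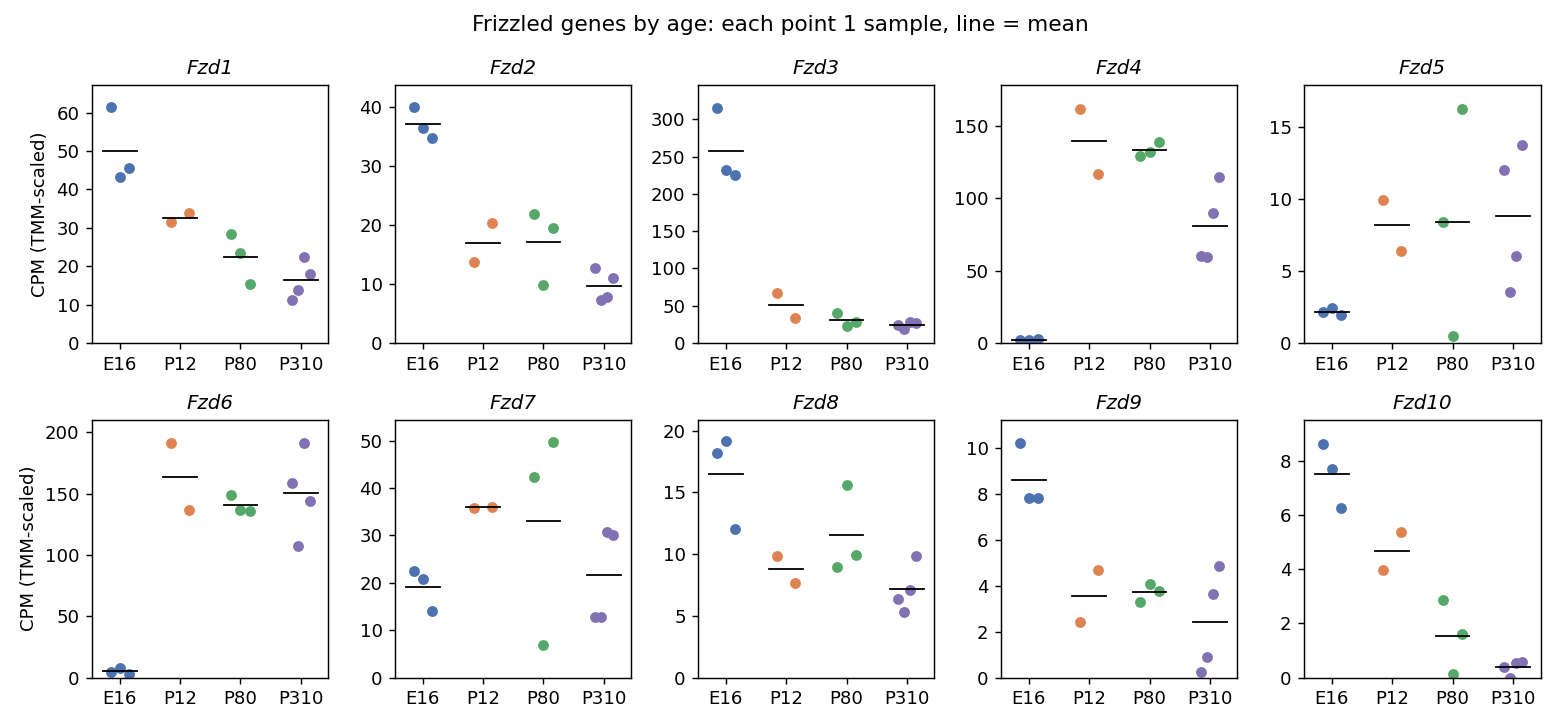
CPM of Fzd1 to Fzd10 by age on linear axes that start at 0, 1 panel a gene, points being the 12 samples and lines the mean of an age. Fzd4 and Fzd6 lie between 59.3 and 191 CPM at the 3 later ages and between 1.8 and 7.72 CPM at E16, and Fzd3 lies at 226 CPM or more only at E16.

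Fzd4, the receptor of Norrin and of Wnts in brain and retinal vessels, was read at 1.8, 1.93 and 2.83 CPM in the E16 samples. It stood at 162 CPM in P12 replicate 1 and 117 CPM in the summed P12 replicates 2 and 3. At P80 it was read at 129, 132 and 139 CPM, and at P310 at 60.3, 59.3, 90.0 and 115 CPM. Every later sample lay above every E16 sample, and the 4 P310 samples lay below the 3 P80 samples. Mitochondrial genes took 1.52% to 3.54% of counts in the E16 libraries, 4.44% to 10.8% at P12, 12.8% to 23.5% at P80 and 18.3% to 34.4% at P310. The P310 replicates with the lowest Fzd4, 1 and 2, had the highest mitochondrial shares, 34.4% and 29.1%. Between P310 replicates 3 and 4 the order was the other way, with 90.0 CPM at 18.3% and 115 CPM at 24.5%. P80 replicates 1, 2 and 3 had 129, 132 and 139 CPM at 12.8%, 23.5% and 19.2%. The part of RNA quality in any change with age was not tested. Fzd4 averaged 139 ± 31.7 CPM at P12 (n = 2) and 2.19 ± 0.561 at E16 (n = 3), a 63.3-fold rise with a log2 change of 5.99 (SE 0.35, edgeR adjusted p = 2e-08). At P80 it averaged 133 ± 5.33 CPM, 60.5-fold above E16 (log2 change 5.92, SE 0.34, edgeR adjusted p = 1.01e-08).

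Fzd6, a receptor known from hair patterning and planar polarity in the mouse, was read at 4.61, 7.72 and 3.07 CPM at E16 and at 191 and 137 CPM at P12. At P80 it stood at 149, 137 and 136 CPM, and at P310 at 159, 107, 191 and 144 CPM. E16 lay apart from all later samples, and the 3 later ages overlapped. Its mean was 164 ± 38.4 CPM at P12 and 5.13 ± 2.37 at E16, a 31.9-fold rise (2 SE interval 4.28 to 5.71 on the log2 scale, edgeR adjusted p = 1.07e-07), and 141 ± 7.14 CPM at P80, 27.4-fold above E16 (log2 change 4.77, SE 0.34, edgeR adjusted p = 6.96e-08). The calls of Fzd4 and Fzd6 against E16 held in all 22 alternatives, with log2 changes of 5.73 to 6.22 and 4.73 to 5.42 at P12 and 5.80 to 6.15 and 4.51 to 5.20 at P80.

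Markers of vessel cells moved with both genes. The 10 endothelial markers, none of them at 0 in any sample, summed to 46.7 to 73.6 CPM at E16, 4263 to 5594 at P12, 4736 to 5792 at P80 and 3770 to 7098 at P310, and all 10 were called higher at P12 and at P80 than at E16, with medians of 6.72 and 6.75 on the log2 scale. Sums of 10 markers each for mural cells (871 to 1170 CPM at P12, 161 to 233 at E16), microglia (991 to 1048 at P12, 92.1 to 128 at E16) and astrocytes (2919 to 3401 at P12, 458 to 528 at E16) were higher at P12 as well. So were those of ependymal and choroid plexus cells (903 to 5638 at P12, 103 to 173 at E16, 10 of 10 called higher), mature oligodendrocytes (387 to 8095 at P12, 48.8 to 62.6 at E16, 6 called higher) and fibroblasts (1531 to 2265 at P12, 666 to 762 at E16, 5 called higher). The part of these cells in the levels of Fzd4 and Fzd6 was not tested. As a share of the endothelial sum, a ratio chosen after the values were seen, Fzd4 stood at 2.9%, 2.62% and 6.06% at E16, 2.89% and 2.75% at P12, 2.45%, 2.27% and 2.94% at P80, and 1.07%, 1.57%, 1.27% and 1.89% at P310. The same share for Fzd6 was 7.42%, 10.5% and 6.57% at E16, 3.42% and 3.21% at P12, 2.83%, 2.37% and 2.87% at P80, and 2.82%, 2.84%, 2.69% and 2.36% at P310. The Fzd4 share was lowest in the P310 samples, and the Fzd6 share was highest in the E16 samples, with no overlap in either case. The make-up of the endothelial sum itself differed with age, which bears on these shares. At E16 Cdh5 averaged 24.7 CPM of a sum that averaged 60.8 CPM. Flt1 averaged 1048 CPM at P12, 2304 at P80 and 2488 at P310, while Kdr averaged 941, 317 and 299.5 CPM.

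**Figure D3:**
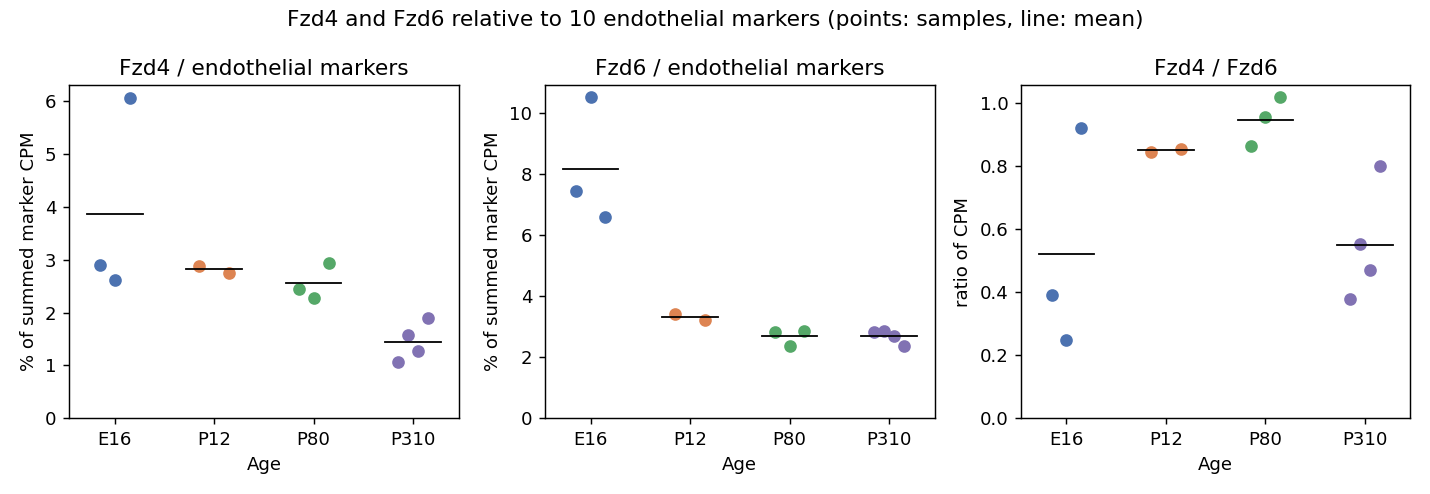
Fzd4 and Fzd6 as percent of the summed CPM of 10 endothelial markers, and the ratio of Fzd4 to Fzd6 in CPM, by age, points being the 12 samples and lines the mean of an age. The Fzd4 share is 2.27% to 2.94% at P12 and P80 and 1.07% to 1.89% at P310, and the ratio spreads from 0.25 to 0.923 among the E16 samples.

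Fzd3, known for axon guidance and tract formation in the mouse brain, had the largest fall of the members called lower at P12 or P80 against E16. It was read at 315, 232 and 226 CPM at E16, 67 and 33.8 at P12, 40.5, 22.7 and 28.7 at P80, and 24, 18.3, 28.5 and 27.4 at P310. The 3 E16 samples lay above every later sample. Fzd3 averaged 50.4 ± 23.5 CPM at P12 and 258 ± 49.7 at E16, with a log2 change of -2.36 (SE 0.35, edgeR adjusted p = 0.000136). At P80 its mean of 30.7 ± 9.07 CPM gave a log2 change of -3.07 against E16 (SE 0.31, edgeR adjusted p = 2.01e-06). Both calls held in all 22 alternatives, at -2.93 to -1.95 and -3.32 to -2.90. The 10 immature neuron markers, all 10 called lower at P12 and at P80 than at E16, summed to 6209 to 7286 CPM at E16, 245 to 265 at P12, 91.3 to 105 at P80 and 96.2 to 136 at P310. From 1 to 3 of Nhlh1, Dlx5 and Igfbpl1 were at 0 in each of the 7 adult samples. Relative to this sum, a ratio also chosen after the values were seen, Fzd3 stood at 4.33%, 3.74% and 3.63% at E16, 27.3% and 12.7% at P12, 38.8%, 21.6% and 31.5% at P80, and 25%, 13.4%, 21.1% and 27% at P310. The share was thus lower in every E16 sample than in any later one, while the level itself was higher. The part of neuronal RNA in the Fzd3 level was not tested.

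Fzd1, a Wnt receptor that signals through beta-catenin, was read at 61.5, 43.3 and 45.6 CPM at E16, 31.5 and 33.8 at P12, 28.4, 23.3 and 15.3 at P80, and 11.1, 13.9, 22.5 and 17.9 at P310. Each sample after E16 lay below the lowest E16 sample, and P80 lay below P12 without overlap. Fzd1 fell at P80 (22.4 ± 6.63 CPM, against 50.1 ± 9.88 at E16) by 1.16 on the log2 scale (SE 0.31, edgeR adjusted p = 0.00815), a call that ended without P80 replicate 3 (-0.88, edgeR adjusted p = 0.0559). At P12 its mean was 32.7 ± 1.67 CPM and its log2 change against E16 of -0.62 (SE 0.35) did not pass, with an edgeR adjusted p of 0.213.

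Fzd2, a close relative of Fzd1, was read at 40.1, 36.5 and 34.8 CPM at E16, 13.7 and 20.4 at P12, 21.9, 9.88 and 19.5 at P80, and 12.7, 7.26, 7.85 and 11 at P310. The E16 samples lay above all others, and P12 and P80 overlapped. Fzd2 fell at P12 (17.1 ± 4.76 CPM, against 37.1 ± 2.68 at E16) by 1.12 on the log2 scale (SE 0.39, edgeR adjusted p = 0.0478), a call that ended in 12 of 22 alternatives, among them leaving out any 1 of the E16 or P12 samples, with log2 changes of -1.44 to -0.86 and adjusted p of 0.00679 to 0.284 over all 22, which include DESeq2 and limma-voom besides edgeR. At P80 its mean of 17.1 ± 6.35 CPM gave a fall of 1.11 against E16 (SE 0.35, edgeR adjusted p = 0.0186). That call ended without E16 replicate 1 (-1.06) and without P80 replicate 2 (-0.84). The fall in neuronal markers given for Fzd3 went with Fzd1 and Fzd2 too. Of 10 radial glia and progenitor markers, 4 were called lower and 1 higher at P12 and 5 and 1 at P80 against E16. Their median log2 changes were -1.94 and -2.09. Their sum was 1538 to 1617 CPM at E16, 1432 to 1641 at P12 and 1073 to 1318 at P80. Of 10 mature neuron markers 4 were called lower at each age, beside 10.5% and 19.2% of all genes. The part of these cells in the Fzd1, Fzd2 and Fzd3 levels was not tested.

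Fzd7, the third close relative and the Frizzled best known from stem cells, passed no test between ages. It was read at 22.4, 20.8 and 14 CPM at E16, 35.8 and 36.1 at P12, 42.3, 6.92 and 49.7 at P80, and 12.8, 12.9, 30.8 and 30.2 at P310. P80 replicate 2 lay below every other sample, and the other 2 P80 samples lay above all. The log2 change was 0.92 at P12 (SE 0.62, 2 SE interval -0.32 to 2.15) and 0.80 at P80 (SE 0.57, interval -0.33 to 1.93) against E16. Without P80 replicate 2 the change at P80 was 1.28 and passed, and the P12 change passed with only the ages compared (1.03). The 10 fibroblast markers summed to 656, 465 and 721 CPM in the P80 samples, lowest in replicate 2 as well, where Twist1 was at 0. Fzd7 was 1.49% of that sum in P80 replicate 2, against 6.46% and 6.89% in replicates 1 and 3. At P310 the sum was highest in replicate 1 (839 CPM), where Fzd7 was lowest.

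Fzd5, a receptor needed for eye and yolk sac vessel development in the mouse, was read at 2.16, 2.41 and 1.95 CPM at E16, 9.95 and 6.4 at P12, 8.43, 0.494 and 16.3 at P80, and 12, 3.52, 6.06 and 13.8 at P310. P80 replicate 2 again lay below all other samples, and apart from it every later sample lay above E16. The log2 changes of 1.91 at P12 (SE 0.88, edgeR adjusted p = 0.126) and 1.96 at P80 (SE 0.82, edgeR adjusted p = 0.0711) against E16 did not pass. The P80 change passed in 4 of 22 alternatives, with DESeq2 (1.96), with no filter (1.95), without P80 replicate 2 (2.50) and without P310 replicate 2. The P12 change passed in 3 of 22, at the same value without P80 replicate 2 and with no filter, and at 2.03 with only the ages compared. Fzd8, its close relative, lies at chr18:9212856-9216201 on the plus strand with 1 exon block. It was read at 18.2, 19.2 and 12 CPM at E16, 9.89 and 7.63 at P12, 9, 15.6 and 9.94 at P80, and 6.33, 5.28, 7.13 and 9.86 at P310. Here P80 replicate 2 was the highest sample of its age and overlapped E16. Its log2 changes of -0.91 at P12 (SE 0.43, interval -1.77 to -0.05) and -0.52 at P80 (SE 0.38, interval -1.28 to 0.24) did not pass. The P12 change passed in 2 of 22 alternatives, limma-voom (-1.06) and P12 replicates 2 and 3 kept apart (-0.97), and the P80 change with limma-voom alone (-0.77).

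Fzd9, known from hippocampal and B cell development in the mouse, was read at 10.2, 7.84 and 7.84 CPM at E16, 2.43 and 4.67 at P12, 3.29, 4.08 and 3.76 at P80, and 0.264, 0.88, 3.66 and 4.84 at P310. All later samples lay below E16, and the P310 samples were spread from the lowest to the highest of the postnatal values. The log2 changes of -1.27 at P12 (SE 0.85, interval -2.98 to 0.43) and -1.22 at P80 (SE 0.75, interval -2.72 to 0.28) did not pass.

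Fzd10 was the scarcest member in adults. It was read at 8.64, 7.72 and 6.25 CPM at E16, 3.98 and 5.36 at P12, 2.85, 0.124 and 1.6 at P80, and 0.396, 0, 0.535 and 0.595 at P310. The P12 samples lay below E16 and the P80 samples below P12, and P80 replicate 2 held a single count. The 4 P310 samples held 16 counts in all, and P310 replicate 2 held 0, which allows up to 3 counts or 0.33 CPM by counting error alone. Fzd10 passed the test over all ages (edgeR adjusted p = 0.00734) but no single step: its log2 change was -0.69 at P12 (SE 0.96) and -2.27 at P80 (SE 0.89, edgeR adjusted p = 0.0555) against E16. The P80 change passed in 7 of 22 alternatives, over a range of -3.05 to -1.75, among them without P80 replicate 1 (-3.05) and without P310 replicate 2. The P310 change against P12 of -3.56 (SE 0.93, edgeR adjusted p = 0.0614) passed in 5 of 22, among them without P80 replicate 2 (-3.56).

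**Figure D4:**
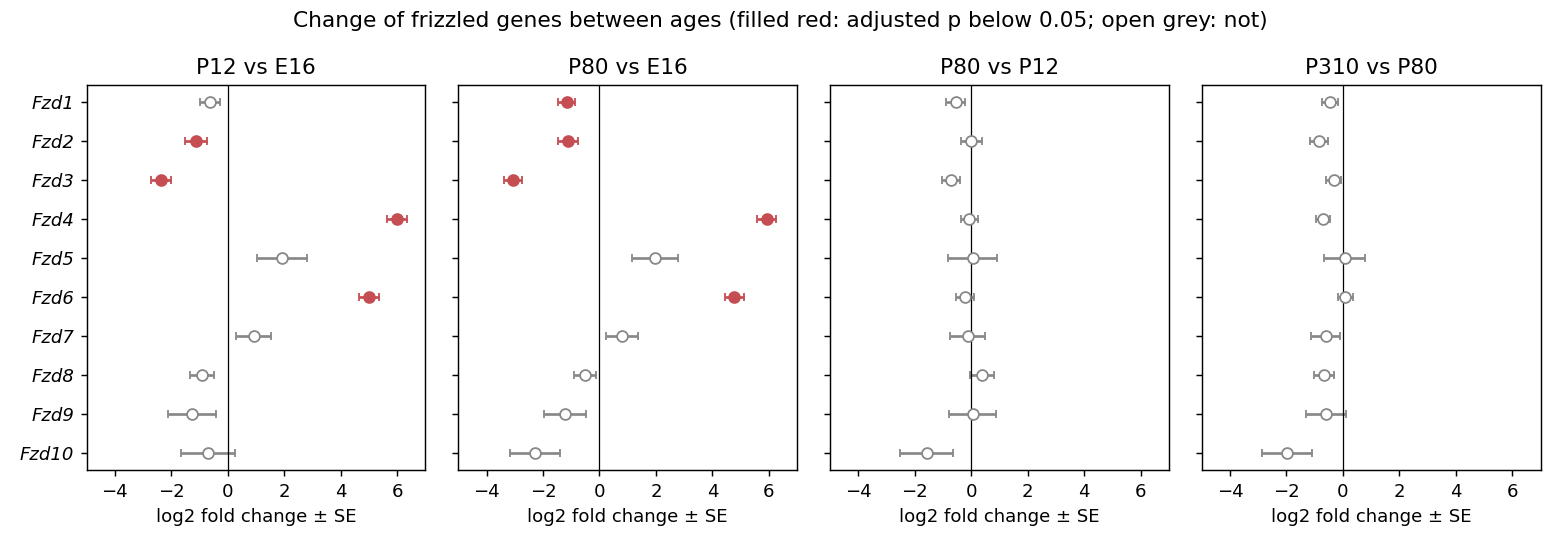
Log2 change of each Frizzled gene in 4 comparisons of ages, later age over earlier, points being edgeR estimates and bars 1 SE on each side, filled where the adjusted p is under 0.05. Filled points stand in the comparisons with E16 alone, those of Fzd2, Fzd3, Fzd4 and Fzd6 at P12 and of Fzd1, Fzd2, Fzd3, Fzd4 and Fzd6 at P80.

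After P12 no member passed the test. At P80 against P12 edgeR called 1.42% of all genes and none of the 10 members, of which 1 had an unadjusted p under 0.05, as had 9.74% of all genes. The difference was -0.07 for Fzd4 (2 SE interval -0.66 to 0.53) and -0.22 for Fzd6 (interval -0.86 to 0.42), and samples did not overlap for 2 of 10 members, Fzd1 and Fzd10, beside 26.6% of all genes. At P310 against P80 edgeR called 0% of all genes, while 1159 genes (5.47% of all) and 3 of 10 members had an unadjusted p under 0.05. DESeq2 called 28 genes there and limma-voom 0. The only member whose P310 and P80 samples did not overlap was Fzd4, as was so for 4.86% of all genes, with 81.2 ± 26.7 CPM at P310 and 133 ± 5.33 at P80 and a log2 change of -0.71 (interval -1.21 to -0.22, edgeR adjusted p = 0.871). Fzd6 differed by 0.09 (interval -0.45 to 0.64), and the CPM ratio of Fzd4 to Fzd6 was 0.379, 0.554, 0.471 and 0.802 at P310, against 0.865, 0.957 and 1.02 at P80. At P310 against P12 edgeR called 2.51% of all genes and no member, 5 of 10 members and 12.3% of all genes having an unadjusted p under 0.05, and the samples of 6 of 10 members did not overlap, beside 19.9% of all genes. Nearest to the threshold were Fzd10 and Fzd3 (log2 change -1.03, SE 0.30, edgeR adjusted p = 0.092, and -1.45 and called without P12 replicate 2-3).

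Genes with profiles most like each member were ranked among 12258 coding genes by the root-mean-square difference of centred log2 CPM over the 12 samples, a description in which the step between E16 and later ages weighs most. Closest to Fzd6 were Tgfbr2, a TGF-beta receptor (0.232), Itga1, a collagen-binding integrin subunit (0.241), and Arhgef5 (0.243). Tgfbr2 averaged 9.06, 262, 229 and 194 CPM at E16, P12, P80 and P310. Fzd4 was nearest to Afap1l1 (0.367), Tdrp (0.379) and Prkch, a protein kinase C (0.389), and Afap1l1 averaged 4.23, 208, 259 and 207 CPM at those ages. Within the family, Fzd4 and Fzd6 were each other's nearest at 0.62, which is further than their nearest genes outside it.

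The remaining members had other neighbours. Fzd3 was most like Gpr161, a receptor of the primary cilium (0.249), Hnrnpab, an RNA-binding protein (0.266), and Idh1, a cytosolic isocitrate dehydrogenase (0.277). Fzd1 was most like Xpo5, which exports pre-miRNAs from the nucleus (0.223), Cnot6, a deadenylase (0.26), and Nol11 (0.262), and Fzd2 most like Zic1, a transcription factor of the dorsal brain and meninges (0.28), Mpp6 (0.306) and Gfod2 (0.307). Fzd8 was closest to Phospho2 (0.229), Sh3rf1 (0.241) and Cog6 (0.242), and Fzd1 and Fzd8 were each other's nearest relatives by profile at 0.506. Fzd5 was nearest to Slc13a4, a sulfate transporter of choroid plexus and meninges (0.511), Foxd1, a transcription factor (0.627), and Serping1, the C1 inhibitor (0.629). Slc13a4 stood at 29.3, 4.2 and 43.7 CPM in the P80 samples, low in replicate 2 as Fzd5 was. It was picked for its likeness over these same samples, so this low value is part of the choice and adds nothing to it. The genes nearest to Fzd7 were Rab13, Slc38a2 and Spats2l (0.373 to 0.389), and those nearest to Fzd9 were Lrrc75a, Zfp87 and Pheta1 (0.406 to 0.494). Fzd10 had the loosest matches of the 10 members, Plagl1, Cxadr and F2r (0.752 to 0.89).

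The genes around the receptors were counted by role, to be read against the 27.2% of all genes called at P12 and the 40.7% called at P80 against E16. Of 19 Wnt ligands 15 were tested, of which 5 rose and 1 fell at P12 and 4 rose and 2 fell at P80 against E16, with median log2 changes of 1.16 and 1.32. The 6 calls among 15 ligands at P80 lie at the share of all genes. Wnt7b, a ligand of brain endothelium made by neural cells, fell to 8.06 ± 1.89 CPM at P12, against 84.1 ± 3.86 at E16 (log2 change -3.38, edgeR adjusted p = 0.000714). Wnt4 stood at 19.4 ± 4.76 CPM at P12 and 5.53 ± 1.07 at E16 (1.81, edgeR adjusted p = 0.00358), and Wnt11 held 217 counts over the P12 samples and 9 over those of E16. At P80 Wnt7a fell to 2.78 ± 0.912 CPM, against 17.7 ± 4.08 at E16 (-2.68, edgeR adjusted p = 0.00315). At P310 against P12, 2 of the 15 ligands were called lower, beside 2.51% of all genes called. These were Wnt7a (-2.75, edgeR adjusted p = 0.0314) and Wnt5a (-1.39, edgeR adjusted p = 0.0363), and each call was lost in 9 of 22 alternatives. Norrin (Ndp), the other ligand of Fzd4, had 1.73 ± 0.106 CPM at P12 and 0.944 ± 1.02 at E16 and was not called.

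Of 9 co-receptors and receptor partners, 4 rose and none fell at P12 (median 1.40), and 3 rose and 1 fell at P80 (median 0.96). Adgra2, a partner of Frizzleds for Wnt7 signals, averaged 223 ± 3.56 CPM at P12 and 10.9 ± 1.18 at E16 (log2 change 4.35, edgeR adjusted p = 2.42e-08). Its partner Reck averaged 59.3 ± 16.9 and 4.91 ± 2.87 CPM (3.59, edgeR adjusted p = 0.000466), and Lrp5, the co-receptor used with Fzd4, 156 ± 13 and 45.5 ± 1.19 CPM (1.77, edgeR adjusted p = 3.34e-05). Tspan12, which aids Norrin signalling at Fzd4, rose by 1.40 (edgeR adjusted p = 0.0207), a call lost in 4 of 22 alternatives, which left out E16 replicate 1 (1.41), E16 replicate 2 (1.34), P12 replicate 1 (1.28) or P12 replicate 2-3 (1.51). Lrp6, the other co-receptor, changed by 0.60 without passing (edgeR adjusted p = 0.0996). Ptk7, a planar polarity co-receptor, was the member of this list that was called lower, with 14.8 ± 13.6 CPM at P80 and 74.5 ± 6.7 at E16 (-2.32, edgeR adjusted p = 0.0109).

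**Figure D5:**
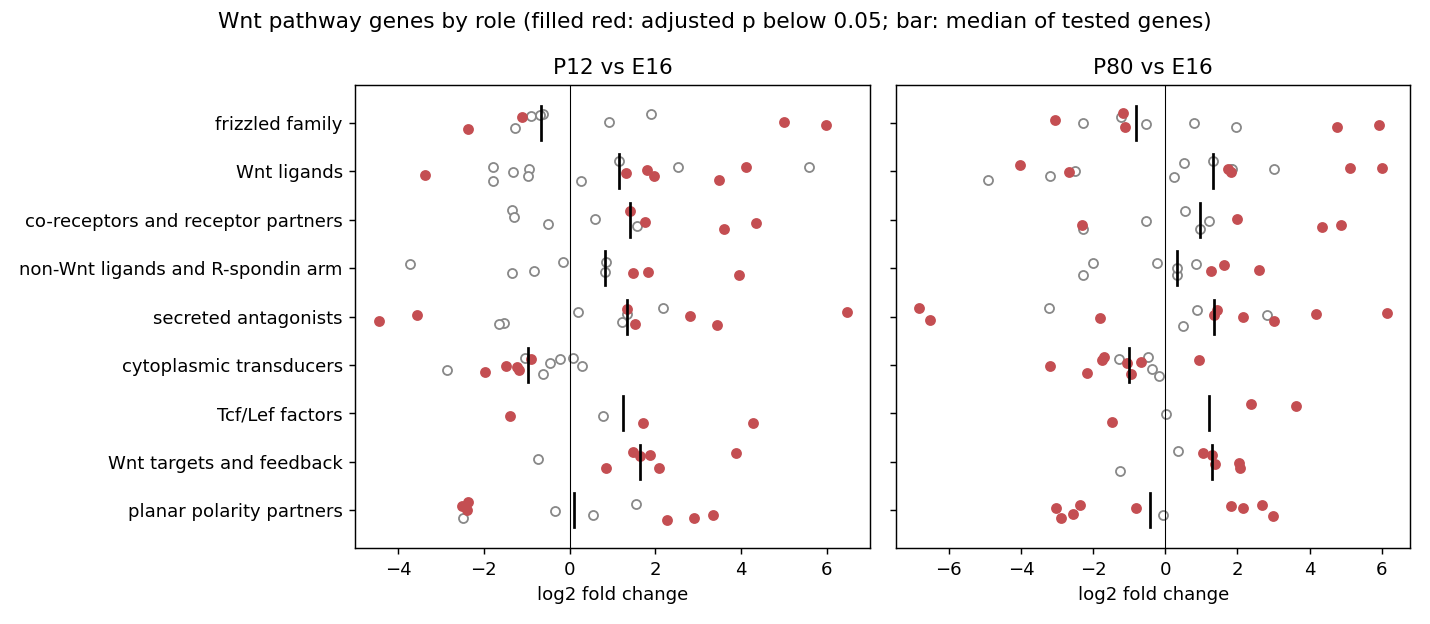
Log2 change at P12 against E16 and at P80 against E16 for every tested gene of the pathway lists and of the Frizzled family, grouped by role, points being genes, filled where called, and bars the median of a list. The transducers lie mostly below 0, with a median of -0.98 at P12, and the targets mostly above, with a median of 1.64.

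Of 10 genes of the R-spondin arm and Norrin, 9 were tested, and 3 rose and none fell at each age (medians 0.82 and 0.33), near the 27.2% and 40.7% of all genes called. These 3 were Znrf3, a ubiquitin ligase that removes Frizzleds from the cell surface (46.9 ± 5.32 CPM at P12, 13.3 ± 1.97 at E16, log2 change 1.82, edgeR adjusted p = 0.000146), and the R-spondin receptors Lgr4 and Lgr6. The call of Lgr4 at P12 was lost without P12 replicate 2-3 (1.16), and that of Lgr6 at P80 without E16 replicate 2 (2.39), E16 replicate 3 (2.38) or P80 replicate 1 (1.96). Of 15 secreted antagonists and their receptors 13 were tested, of which 5 rose and 2 fell at P12 and 6 rose and 3 fell at P80 (medians 1.33 and 1.34). Notum, an enzyme that strips the lipid from Wnts, stood at 50.2 ± 6.72 CPM at P12 and 0.58 ± 0.576 at E16 (6.46, edgeR adjusted p = 4.87e-05). Among those that fell, Draxin, an axon guidance protein and Wnt antagonist, held 2.27 ± 1.89 CPM at P80 and 218 ± 34.9 at E16 (-6.51, edgeR adjusted p = 0.00132).

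Inside the cell, of 12 transducers none rose and 5 fell at P12, and 1 rose and 7 fell at P80, with a median of -0.98 at P12. Bcl9, a beta-catenin co-activator, averaged 39.4 ± 6.42 CPM at P12 and 154 ± 30.2 at E16 (log2 change -1.97, edgeR adjusted p = 3.53e-05), and Gsk3b, a kinase that marks beta-catenin for destruction, 119.8 ± 15.1 and 334 ± 47.8 CPM (-1.48, edgeR adjusted p = 0.000126). The Dishevelled genes differed in direction at P80: Dvl3 fell (-1.75, edgeR adjusted p = 3.96e-05) while Dvl1 rose (0.93, edgeR adjusted p = 0.0089). Of 4 Tcf/Lef factors 2 rose and 1 fell at each age. Tcf7 averaged 84.1 ± 25.9 CPM at P12 and 4.33 ± 1.35 at E16 (4.28, edgeR adjusted p = 3.9e-07) and Lef1 145 ± 45.7 and 44.4 ± 2.53 CPM (1.71, edgeR adjusted p = 5.17e-05), while Tcf7l2 fell by 1.39 (SE 0.25, edgeR adjusted p = 0.000629).

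Of 7 target and feedback genes, 6 rose at P12 and 5 at P80, and none fell (medians 1.64 and 1.29). Apcdd1, a membrane Wnt inhibitor induced by the pathway, averaged 618 ± 256 CPM at P12 and 41.6 ± 3.05 at E16 (log2 change 3.89, edgeR adjusted p = 2.7e-07), Nkd1, a Dishevelled-binding feedback inhibitor, 188 ± 36.2 and 44.5 ± 4.65 CPM (2.08, edgeR adjusted p = 2.54e-05), while Tnfrsf19 rose by 1.64 (edgeR adjusted p = 0.000126). Axin2 rose by 1.38 at P80 (edgeR adjusted p = 8.44e-05). After P12 targets were called lower: Apcdd1 at P80 (171 ± 23.2 CPM, -1.86 against P12, edgeR adjusted p = 0.0044, -1.37 and not called without P12 replicate 1), Ccnd1 at P80 (35.1 ± 11.9 CPM, 100.1 ± 34.8 at P12, -1.51, edgeR adjusted p = 0.0461) and Apcdd1 at P310 (119 ± 35.2 CPM, -2.38, edgeR adjusted p = 0.00024), where Nkd1 was called too (-1.41, edgeR adjusted p = 0.00466, and -1.20 and not called without P12 replicate 1). The call of Ccnd1, a cell cycle cyclin, was lost in 13 of 22 alternatives, among them without P12 replicate 1 (-1.11), P80 replicate 2 or P80 replicate 3. These counts are 2 of 7 targets at each step, beside 1.42% and 2.51% of all genes.

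Of 10 planar polarity partners of Fzd3 and Fzd6, 3 rose and 3 fell at P12 and 4 rose and 5 fell at P80 (medians 0.11 and -0.43). Vangl2 averaged 41.1 ± 4.48 CPM at P12 and 212 ± 36 at E16 (log2 change -2.37, edgeR adjusted p = 0.000326), while Vangl1 averaged 41.7 ± 15.2 and 5.64 ± 0.136 CPM (2.89, edgeR adjusted p = 2.24e-05). Celsr1 averaged 45.4 ± 8.84 and 256 ± 63.9 CPM (-2.50, edgeR adjusted p = 4.15e-05), Celsr2 fell by 2.40 (edgeR adjusted p = 0.000817), and Prickle1 60.3 ± 13.8 and 12.4 ± 1.56 CPM (2.28, edgeR adjusted p = 6.6e-06). Endothelial marker sums rose and immature neuron marker sums fell after E16, as given above. The part of these cells in the changes of the pathway lists was not tested. At P310 against P80 edgeR called 0% of all genes, so none of the 8 pathway lists could hold a call there.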

How the data were processed

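The members, the gene lists and the tests were chosen with earlier results of these data known. The authors deposited raw counts per gene. Per the file headers, these were made with featureCounts 1.5.0-p1 for exons in the Ensembl GRCm38 release 92 annotation, for reads overlapping several genes and reads mapping to several places, at a least overlap of 10 bases and without strand or fragment options, although the kit marks strand. Per the submitters' processing notes, Trim Galore and TopHat2 2.1.1 were used with GRCm38/mm10. Symbols came from GENCODE M21, which named 37715 of 37785 genes.

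Genes were filtered with filterByExpr by age, scaled by TMM and fitted over 12 samples with a mean per age by the robust quasi-likelihood F test of edgeR 4.0.16 in R 4.3.3. P-values were adjusted over all 21170 genes by Benjamini-Hochberg and called under 0.05. The common biological coefficient of variation was 0.513. A count of 0 allows up to 3 counts, and such limits and totals speak of counting error only. SE is the log2 change divided by the square root of F. The named genes are all 10 members, Pdgfra, up to 3 called genes per list and comparison with the smallest adjusted p and those called against their list, and the 3 coding genes with at least 5 CPM most like each member (log2 CPM, prior count 2). Not every gene that met this rule is named. Genes named beyond it (Ndp, Lrp6, Tspan12, Celsr2 and single cell type markers) were chosen after their values were seen. Alternatives were RLE and upper-quartile factors, no filter and a stricter one, DESeq2 1.42.0, limma-voom 3.58.1 with sample weights, a fit of only those ages that were compared, a replicate term, P12 replicates 2 and 3 kept apart, no mitochondrial, ribosomal or haemoglobin genes, and 12 fits that each left out 1 sample. Python 3.11.15 with numpy 2.4.6, pandas 2.3.3 and matplotlib 3.10.9 made summaries and figures.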

Additional observations from a re-analysis of the deposited data

How the results depend on the processing

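Over 22 alternatives no member changed direction in a call. Of the members called against E16, Fzd3, Fzd4 and Fzd6 passed in all 22 at both ages. At P12 the number of members called against E16 was 4, with 3 to 5 when 1 sample was left out and 3 to 6 under the other alternatives. At P80 it was 5, with 4 to 7 and 5 to 8, the 8 coming from limma-voom, which also called Fzd8, Fzd9 and Fzd10. At P310 against P12, where no member was called, 2 were called with no filter (Fzd3 and Fzd10), 1 with DESeq2 and 1 with limma-voom (Fzd10 in both), and 2 with P12 replicates 2 and 3 kept apart (Fzd1 and Fzd10). When 1 sample was left out this count was 0 to 1, the call being Fzd3 without P12 replicate 2-3 (-1.45) and Fzd10 without P80 replicate 2. With the replicate number as a block 1 member was called there, Fzd4 (-1.15, edgeR adjusted p = 0.0385). Same-numbered samples of different ages correlated by -0.094 to 0.208 over 15 pairs, 3 of them over 0.1, so the numbers were not taken to pair the samples. The replicate block ended the P12 call of Fzd2 (-1.08). The cause of these moves was not tested. Fits that left P12 with 1 sample assume that it varies like the other ages. Genes called over the whole table ranged from 3748 to 8342 at P12 against E16 (5765 as reported), 6773 to 10849 at P80 against E16 (8614), 71 to 877 at P80 against P12 (301), 0 to 423 at P310 against P80 (0) and 158 to 1285 at P310 against P12 (531). Of the 40 and 47 pathway genes called at P12 and at P80 against E16, 26 and 39 passed in every alternative. In plain CPM, without scaling by length, Fzd4 and Fzd6 held 1.32% to 2.54% of the family at E16 and Fzd3 61.2% to 65%. A fit of P310 and P80 alone gave no value for Fzd10. Depth limits Fzd10 most, with 16 counts over the P310 samples.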
